A study of Mus musculus with 24 samples.

Results

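The colon epithelium of 12-month-old mice was compared with that of 4-month-old mice in 6 of the 24 RNA-seq libraries of the series, chosen by section and age in the sample titles. There were 3 libraries at each age, named A, B and C. All mice were of the strain Lgr5-EGFP-IRES-CreERT2, in which the Lgr5 locus drives EGFP and an inducible Cre in crypt stem cells, and the labels state that none was treated. The RNA came from pooled, unsorted epithelial cells released from the tissue with a dissociation reagent and an enzyme. The study gives the number of mice per pool for its pools of sorted intestinal cells and does not restate it for the RNA pools, so the spread that enters the p-values is one between libraries and may not be one between animals. The other 2 colon libraries, from 24-month-old mice, and the 16 small-intestinal libraries, from the upper (USI) and the lower part (LSI), entered the fit and are shown where they bear on a colon result.

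The colon epithelium is a single cell layer that is renewed from stem cells at the base of its crypts. Its main cells are absorptive colonocytes and mucus-secreting goblet cells. Paneth cells, which secrete lysozyme and alpha-defensins into the crypt, are a cell type of the small intestine, and in the mouse colon related roles are held by secretory cells that lie among the crypt base stem cells. Immediate early genes are transcribed within minutes of a growth factor or stress signal, and enzymatic release of cells from tissue is a known stimulus for them.

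The 6 libraries held 35136375 to 37897787 counts, and pairs within an age differed by more than sampling noise (a chi-square of 15.9 to 70.8 for each degree of freedom). The epithelial adhesion gene Epcam stood at 1490 to 1716 CPM (counts scaled to the size of the library), and the leukocyte gene Ptprc at 6.79 to 8.72 CPM. The colonic enzyme gene Car1 was high in all 6 (4470 to 8302 CPM). Libraries stood apart within each age. The 4-month B library held 7301 counts on the Y chromosome, against 12 or fewer in the other 5. Xist, an RNA of the inactive X chromosome in female cells, had 0.458 CPM in that library and 712 to 854 CPM in the other 5. By these values sex was not balanced between the ages. The count column of the 4-month B library carries a name that resembles those of the LSI files, but the sample labels were followed. That library had Car1 at 4470 CPM. Its level of the lysozyme gene Lyz1, given below, was far below the mean of the 4-month LSI. The 12-month C library had a Hoxd13 level of 1.69 CPM, against 14.2 to 31.0 CPM in the other 5. Hoxd13 is a patterning gene of the hindmost body axis.

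At an adjusted p under 0.05, 21 of 17491 tested genes (0.12%) were higher at 12 months and 3 (0.0172%) were lower. The median log2 fold change over all tested genes was -0.005. In each of the 24 called genes the 3 libraries of one age lay wholly above those of the other. This was so for 5.87% of all tested genes in the direction of higher and 5.01% in the direction of lower values at 12 months. The called genes were chosen by a test on these same libraries, so their separation adds no further support. The called genes fell into few kinds. Of the 21 higher genes, 11 belonged to the list of Paneth cell products, and Atf3, Egr2, Fosb and Hbegf are genes of the immediate early kind. Of the 3 lower genes, Meg3 and Rian are noncoding RNAs of 1 imprinted cluster.

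A fit to the 8 colon libraries alone gave 1 higher gene of 16065 (0.00622%) and 5 lower genes (0.0311%), and 3 genes, Rps4y2, Meg3 and Rian, were called by both fits. None of the 21 higher genes was called with the colon libraries alone. The fits differ in the source of the spread: the larger one takes most of it from the 16 small-intestinal libraries. They also differ in residual degrees of freedom, with 15 in the larger fit and 5 with the colon libraries alone. The relative spread that edgeR estimated in common for all genes was smallest for the colon, at 14.4%. For the USI it was 27.5% and for the LSI 22.8%. Single genes could differ from this order. How much each difference added to the loss of calls was not tested. For the lysozyme gene Lyz1 the pooled SD of log2(CPM + 0.1) within groups was 1.18 in the colon and 0.48 in the small intestine, and for Rian it was 0.36 and 0.88.

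Immediate early genes were highest in the 12-month A and B libraries. Atf3, a stress-induced transcription factor gene (chr1:192994175-193007219, mm9), stood at 41.2, 22.2 and 36.0 CPM at 4 months (libraries A, B and C, in that order here and in what follows) and at 329, 294 and 111 CPM at 12 months. The lowest 12-month library was thus above the highest 4-month library. Its mean was 245 ± 117 CPM (SD, n = 3) against 33.1 ± 9.82 CPM, with a log2 fold change of 2.88 ± 0.42 (SE, adjusted p = 0.0074 by edgeR's quasi-likelihood test). The adjusted p was 0.0508 with the 8 colon libraries alone.

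Egr2, a zinc finger transcription factor gene (chr10:66998223-67004936), had 0.505, 1.02 and 0.934 CPM at 4 months and 5.69, 5.17 and 2.59 CPM at 12 months. Its log2 fold change was 2.45 ± 0.35 (adjusted p = 0.0074). Fosb, which codes for a subunit of the AP-1 transcription factor (chr7:19888070-19895394), had 229, 211 and 230 CPM at 4 months and 1048, 843 and 390 CPM at 12 months. Its log2 fold change was 1.77 ± 0.33 (adjusted p = 0.0355). Hbegf, which codes for a ligand of the EGF receptor, had 56.9, 44.3 and 37.9 CPM at 4 months and 233, 209 and 90.4 CPM at 12 months. Its log2 fold change was 1.94 ± 0.28 (adjusted p = 0.0074). In all 4 genes the 12-month C library was the lowest of its age and still above every 4-month library. Leaving out the 4-month B library ended all 4 calls, and leaving out the 4-month A library ended those of Atf3, Egr2 and Fosb. Hbegf was also lost without the 4-month C library, and Fosb without the 4-month C library or either of the 12-month libraries A and B.

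The promoter windows of the 3 transcription factor genes are shown because these genes moved together. Each is the RefSeq window from 250 bases before to 50 bases after a start site (GRCm38.p6), found as an exact and single match in mm9. Capitals mark TGACG, the core of a cAMP response element, on either strand.
Atf3, chr1:193007163-193007462, minus strand: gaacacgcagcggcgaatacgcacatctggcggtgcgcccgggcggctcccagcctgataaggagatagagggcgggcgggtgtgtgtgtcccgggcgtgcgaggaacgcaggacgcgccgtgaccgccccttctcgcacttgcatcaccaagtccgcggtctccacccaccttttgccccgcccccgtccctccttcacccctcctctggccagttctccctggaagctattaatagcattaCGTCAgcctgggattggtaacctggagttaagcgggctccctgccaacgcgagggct
Egr2, chr10:66997997-66998296, plus strand: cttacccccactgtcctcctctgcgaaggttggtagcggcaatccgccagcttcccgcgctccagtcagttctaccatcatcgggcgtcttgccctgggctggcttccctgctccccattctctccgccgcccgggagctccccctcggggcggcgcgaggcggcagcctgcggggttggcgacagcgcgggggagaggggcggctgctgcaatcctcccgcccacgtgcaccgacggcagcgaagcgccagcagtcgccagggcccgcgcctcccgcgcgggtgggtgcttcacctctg
Fosb, chr7:19895345-19895644, minus strand: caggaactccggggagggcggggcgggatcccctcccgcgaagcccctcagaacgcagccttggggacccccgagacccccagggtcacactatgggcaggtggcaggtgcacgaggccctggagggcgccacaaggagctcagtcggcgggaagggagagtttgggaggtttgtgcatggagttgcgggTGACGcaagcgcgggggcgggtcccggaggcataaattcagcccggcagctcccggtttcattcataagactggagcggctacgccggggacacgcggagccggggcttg

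None of the 3 windows held the full element TGACGTCA, the AP-1 motif TGANTCA or a CArG box, which are found on either strand in 1.8%, 7.79% and 1.64% of 32544 distinct RefSeq windows of this length. The shorter TGACG was searched after those gave no match. It begins at position -7 in the Atf3 window and -60 in the Fosb window, counted from the start site as 0, and is held by 20.9% of all windows.

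**Figure D1:**
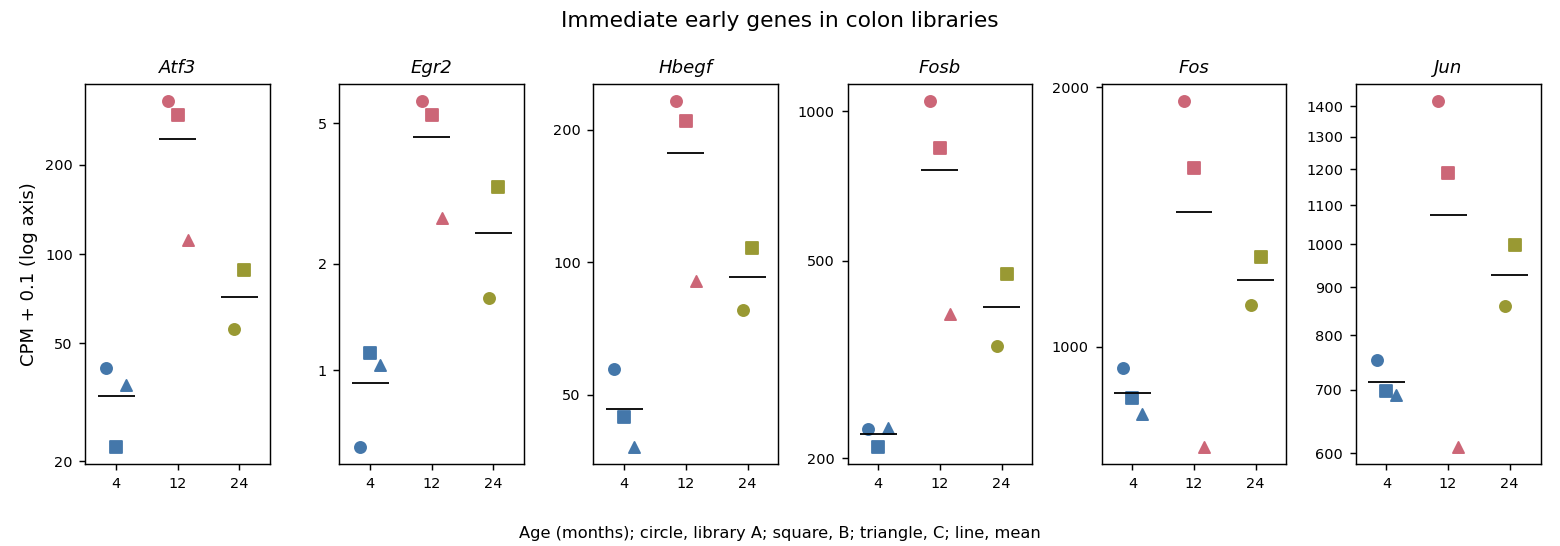
CPM plus 0.1 on a log axis for 6 immediate early genes in the 8 colon libraries, by age in months, with circles for library A, squares for B, triangles for C and a line for the mean. In Atf3, Egr2, Hbegf and Fosb all 12-month points lie above all 4-month points, whereas for Fos and Jun the 12-month C triangle lies below the 4-month points.

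The wider list of immediate early and dissociation stress genes had 43 tested members. Of these, 3 were called higher and none lower, and 23 were higher at an unadjusted p under 0.05, against 2.46% of all tested genes. The median log2 fold change of the list was 0.61. Its best-known members did not separate the ages. Fos had 944, 873 and 835 CPM at 4 months and 1928, 1611 and 764 CPM at 12 months, and Jun had 753, 698 and 691 CPM against 1418, 1190 and 609 CPM. In both, the 12-month A and B libraries were high and the C library was below all 3 libraries at 4 months. Summed over the list, the level was 5922 to 6302 CPM at 4 months and 12348, 10459 and 5646 CPM at 12 months (exact permutation p = 0.4, two-sided, where 0.1 is the smallest that 3 against 3 allows). The number of list members called was 0 without the 4-month A or the 4-month B library, 2 without the 4-month C, 12-month A or 12-month B library, and 8 without the 12-month C library.

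Changes of similar size were measured in the small intestine, where 7 genes (0.04%) were called higher at 12 months in the USI and 9 (0.0515%) in the LSI. Atf3 had a log2 fold change of 1.86 in the USI (adjusted p = 0.155) and 2.39 in the LSI (adjusted p = 0.0321). Hbegf had 1.64 in the USI (adjusted p = 0.0303) and 1.82 in the LSI (adjusted p = 0.015). The difference between the colon and either small-intestinal section was not called for any member of the list. The smallest adjusted p was 0.447 against the USI. How far dissociation or handling of the tissue moved these genes was not tested.

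Paneth cell genes made up 11 of the 21 higher genes, and most were highest in the 12-month C library. Lyz1, which codes for the lysozyme of Paneth cells (chr10:116724852-116729924), had 14.8, 5.55 and 15.6 CPM at 4 months and 92.0, 40.1 and 396 CPM at 12 months. All 3 libraries at 12 months were above those at 4 months, and they ranged from 40.1 to 396 CPM. Its mean was 176 ± 192 CPM against 12.0 ± 5.60 CPM, and its log2 fold change was 3.88 ± 0.65 (adjusted p = 0.0177). Itln1, which codes for the glycan-binding lectin intelectin, had 4.65, 2.85 and 5.35 CPM at 4 months and 66.5, 15.3 and 79.8 CPM at 12 months (log2 fold change 3.65 ± 0.55, adjusted p = 0.00872). For Itln1 the 12-month A and C libraries were both high. Without the 12-month C library the log2 fold change of Lyz1 was 2.46. Lyz1 lost its call without any 1 of the 4-month libraries, and Itln1 without the 4-month A or B library.

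The alpha-defensins are small antimicrobial peptides coded by a family of related genes, some of them near-identical. All 10 called genes on chromosome 8 lay within chr8:22165224-22845943, a span of 681 kb. Defa24 had 4.92, 2.29 and 6.22 CPM at 4 months and 28.3, 13.8 and 119 CPM at 12 months (log2 fold change 3.58 ± 0.63, adjusted p = 0.0206). Defa21 had 1.60, 0.712 and 2.04 CPM at 4 months and 21.7, 5.61 and 87.7 CPM at 12 months (log2 fold change 4.73 ± 0.78, adjusted p = 0.0177). In both, the order of the 12-month libraries was C, A, B, and the lowest of them was above all 4-month libraries. Without the 12-month C library the log2 fold change was 2.23 for Defa24, whose call was then lost, and 3.24 for Defa21. Both calls were lost without any 1 of the 4-month libraries.

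The last 105 coding bases, which hold most of the mature peptide, are shown for the called defensins whose coding length equals that of Defa21 (282 bases), from the GENCODE annotation of mm9. Capitals mark bases that differ from Defa21.
Defa21: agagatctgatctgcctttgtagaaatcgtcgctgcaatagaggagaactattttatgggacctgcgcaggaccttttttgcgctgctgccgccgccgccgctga
Defa22: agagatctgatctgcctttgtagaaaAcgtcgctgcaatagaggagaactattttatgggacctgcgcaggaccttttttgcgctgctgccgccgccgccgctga
Defa24: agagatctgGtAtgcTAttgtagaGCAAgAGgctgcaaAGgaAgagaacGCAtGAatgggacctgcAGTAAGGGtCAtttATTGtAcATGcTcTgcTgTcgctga
Defa5: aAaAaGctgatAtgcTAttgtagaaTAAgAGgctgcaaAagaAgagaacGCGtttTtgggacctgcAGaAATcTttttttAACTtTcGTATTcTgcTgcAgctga

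Defa22 differed from Defa21 at 1 of these bases and at 2 over its whole coding sequence, so reads of the pair are hard to tell apart and their counts are uncertain. Defa24 and Defa5 differed from Defa21 at 40 and 36 of the 105 bases. Defa22 and Defa5 had the same order of 12-month libraries, with 15.1, 4.73 and 72.2 CPM for Defa22 and 7.68, 2.54 and 35.8 CPM for Defa5. Without the 12-month C library their log2 fold changes were 2.46 and 2.75, against 4.09 and 4.34 with it, and neither was called. Lyz1 has a close relative too. Lyz2, the lysozyme gene of macrophages, differs from it at 22 of 447 coding bases, and had 0.204 to 1.44 CPM in the 6 libraries.

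**Figure D2:**
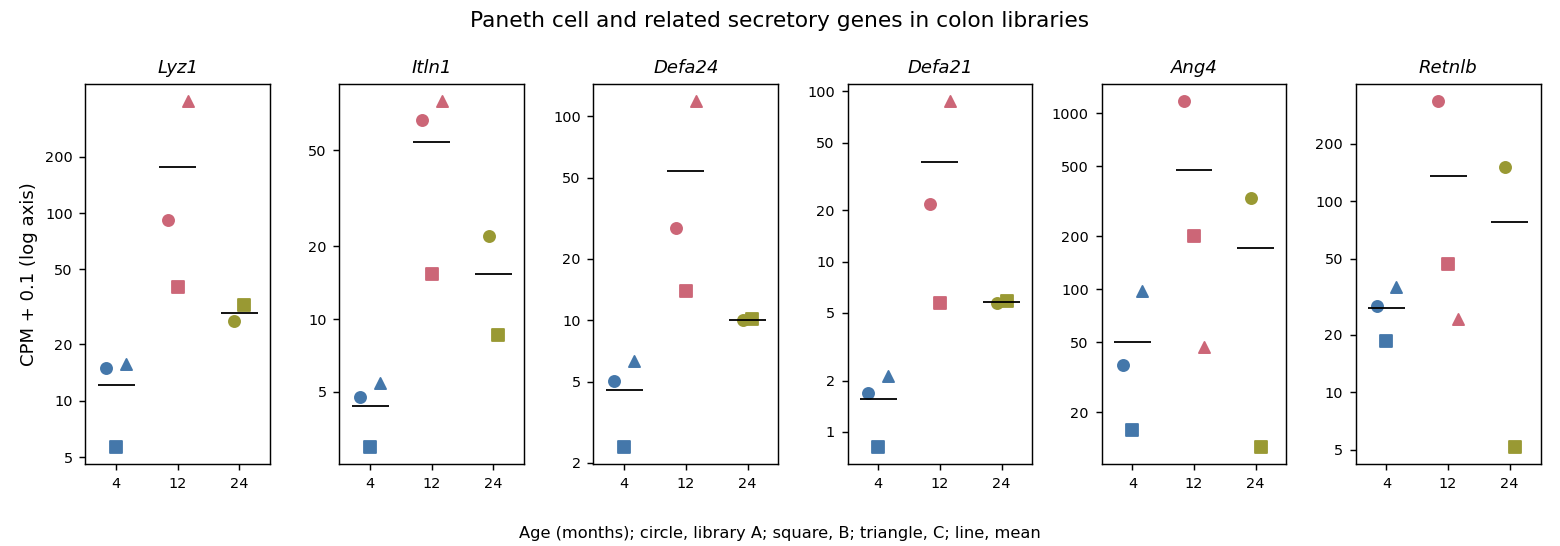
CPM plus 0.1 on a log axis for Paneth cell and related secretory genes in the 8 colon libraries, by age in months, with circles for library A, squares for B, triangles for C and a line for the mean. In Lyz1, Defa24 and Defa21 the 12-month C triangle is the highest point, whereas in Ang4 and Retnlb the 12-month A circle is highest and the C triangle lies among the 4-month points.

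Of the 28 Paneth cell products, 25 were tested, 11 were called higher, against 0.12% of all tested genes, and none was called lower. Most of the called members are alpha-defensin genes of 1 stretch of chromosome 8, some near-identical. They do not count as independent genes beside these shares. The median log2 fold change of the tested members was 3.65, and 19 were higher at an unadjusted p under 0.05, against 2.46% of all tested genes. With the 8 colon libraries alone 20 members were tested, none was called, and 19 were higher at an unadjusted p under 0.05, against 4.21% of all tested genes in that direction and 3.02% in the other. The number called was 4 without the 12-month C library, 14 without the 12-month A library, 15 without the 12-month B library, 1 without the 4-month C library, and 0 without the 4-month A or the 4-month B library. In bulk RNA, a change in the number of cells of a type and a change in RNA per cell cannot be told apart.

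Genes of the list did not share 1 library order. Ang4, an antimicrobial angiogenin of crypt secretory cells, had 36.8, 15.7 and 97.6 CPM at 4 months and 1174, 199 and 47.1 CPM at 12 months. Retnlb, which codes for a goblet cell cytokine and is not in the list, had 28.4, 18.4 and 35.6 CPM against 336, 46.8 and 24.3 CPM. Both were high in the 12-month A library and within the 4-month range in the C library, and neither was called. Summed over the list, the level was 348 to 496 CPM at 4 months and 1867, 731 and 1678 CPM at 12 months (exact permutation p = 0.1, the smallest possible). In the 12-month A library Ang4 alone gave 1174 of the 1867 CPM. At 24 months the sum over the list was 685 and 448 CPM, and Lyz1 stood at 26.4 and 32.1 CPM.

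The colon levels were far below those of the small intestine. Lyz1 averaged 9805 ± 2246 CPM in the 4-month LSI and 11868 ± 3326 CPM in the 12-month LSI. Its log2 fold change between 12 and 4 months was -0.26 in the USI and 0.28 in the LSI. The difference between the colon and the USI had an unadjusted p under 0.05 for 19 of 25 tested members, against 4.06% of all genes, and that between the colon and the LSI for 17, against 2.89%. No member passed the adjusted threshold, and the smallest adjusted p was 0.252 against the USI and 0.396 against the LSI.

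Other genes of the small intestine had positive changes without a call. Small-intestinal enterocyte genes, which serve the uptake of fat, sugar and peptides, had log2 fold changes above 0 in 25 of 25 tested members (median 2.03). Of all tested genes, 48.1% were above 0. None of the 25 members was called, and 10 were higher at an unadjusted p under 0.05, against 2.46% of all tested genes. The median of the same list was 0.98 in the USI and 0.23 in the LSI. The difference between the colon and the USI had an unadjusted p under 0.05 for 1 of the 25 members, against 4.06% of all genes. That between the colon and the LSI did for 5, against 2.89%, and no difference was called. Fabp6, which codes for the bile acid binding protein of the ileum, had 3.72, 3.64 and 7.64 CPM at 4 months and 11.5, 14.8 and 113 CPM at 12 months. Apoa1, which codes for an apolipoprotein, had 1.22, 1.12 and 9.93 CPM against 13.0, 89.7 and 65.6 CPM. The 12-month B and C libraries were the high ones for Apoa1 and the C library alone for Fabp6. Summed over the list, the level was 1025, 933 and 1282 CPM at 4 months and 1257, 2040 and 2302 CPM at 12 months (exact permutation p = 0.2).

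Gata4, a transcription factor gene of the upper small intestine, was called higher, with 0.904, 0.865 and 1.19 CPM at 4 months and 1.85, 1.93 and 3.11 CPM at 12 months (log2 fold change 1.22 ± 0.21, adjusted p = 0.0191). It was the 1 called gene of 9 tested members of the upper small-intestinal identity list, whose median was 0.17. Its level was 3.74 and 3.20 CPM at 24 months, and its call was lost without the 12-month C library and without either of the 4-month libraries A and B. Its mean in the 12-month USI was 245 ± 3.03 CPM.

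Genes of posterior patterning had values below 0 and did not pass the test. In the colonic identity list, 13 of 15 tested members were below 0, with a median of -0.38, whereas 48.1% of all tested genes were above 0. In that list 3 members were lower at an unadjusted p under 0.05, against 1.63% of all genes. Hoxd13 had 24.0, 31.0 and 30.9 CPM at 4 months and 16.1, 14.2 and 1.69 CPM at 12 months, and Hoxb13 had 190, 225 and 145 CPM against 170, 175 and 84.0 CPM. The 12-month C library was the lowest of the 6 for both genes and the highest for Lyz1, Defa24 and Fabp6. Hoxd13 was 35.2 and 32.4 CPM at 24 months. The part of the length of the colon that each pool covered is not given in the sources used here, and its part in these results was not tested.

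**Figure D3:**
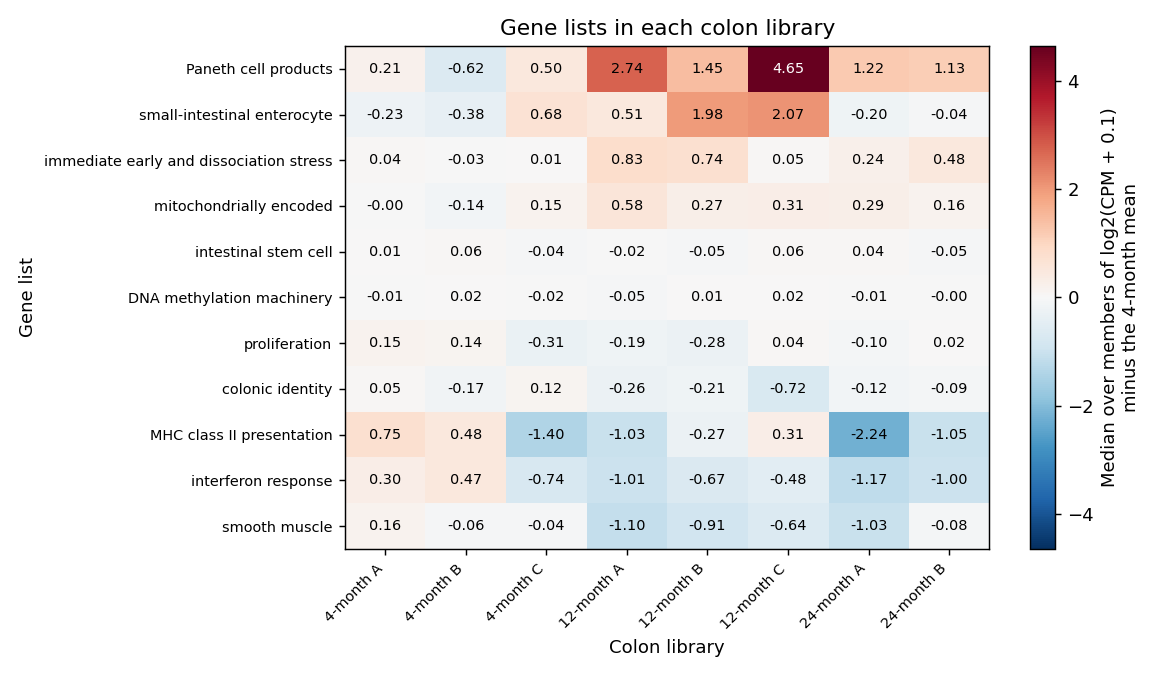
Median over the tested members of each gene list of log2(CPM + 0.1) minus the mean of the 4-month libraries, for each colon library, with red for higher and blue for lower values. The Paneth list reads 2.74, 1.45 and 4.65 at 12 months in libraries A, B and C, and the stem cell and DNA methylation lists stay between -0.05 and 0.06 in all 8.

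Further called genes had low or moderate levels. Lgals2, which codes for the carbohydrate-binding protein galectin-2, had 8.56, 6.56 and 10.2 CPM at 4 months and 15.8, 19.9 and 46.1 CPM at 12 months (adjusted p = 0.0177). It was the 1 called gene of 8 tested galectins, whose median was -0.02. Fam20a, which codes for a pseudokinase of the secretory pathway, had 0.213, 0.254 and 0 CPM against 0.866, 0.935 and 1.94 CPM (adjusted p = 0.017). It was the 1 called gene of 8 tested secretory pathway kinases, whose median was -0.13. For both genes the 12-month C library was highest. Gm17024, a gene model of unstated function, had 0.559, 0.305 and 0.566 CPM against 2.28, 1.64 and 2.07 CPM (adjusted p = 0.0177). Leaving out any 1 of the 4-month libraries ended the calls of Lgals2 and Gm17024, and that of Fam20a was lost without the 4-month A or B or the 12-month C library. The log2 fold change of Lgals2 was 1.69, and 1.08 without the 12-month C library.

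Of the genes lower at 12 months, Rps4y2, a gene related to ribosomal protein S4 (chr6:148303178-148304120), had 8.32, 6.06 and 7.10 CPM at 4 months and 0.635, 0.526 and 0.545 CPM at 12 months. Its mean was 7.16 ± 1.14 CPM against 0.569 ± 0.058 CPM, and its log2 fold change was -3.65 ± 0.22 (adjusted p = 5.94e-08). It had 0 counts in both 24-month libraries. Its log2 fold change was -1.59 in the USI and -1.69 in the LSI, and it was the only gene of 17491 (0.00572% for each section) whose change differed between the colon and the USI (adjusted p = 0.0146) and between the colon and the LSI (adjusted p = 0.0294). With the replicate block, which pairs libraries by letter, the difference from the LSI was not called and that from the USI was. At an unadjusted p under 0.05, 711 and 505 genes differed in the fit without the block.

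Meg3 and Rian are maternally expressed noncoding RNAs of the imprinted Dlk1 cluster. Meg3 (chr12:110779211-110809936) had 13.0, 21.5 and 25.5 CPM at 4 months and 1.88, 1.55 and 3.35 CPM at 12 months (log2 fold change -3.14 ± 0.58, adjusted p = 0.0308). Rian (chr12:110842155-110899919) had 7.18, 15.7 and 9.82 CPM against 1.10, 1.17 and 1.09 CPM (log2 fold change -3.28 ± 0.63, adjusted p = 0.04). Each 12-month library was below every 4-month library. In the 24-library fit both calls were lost without any 1 of the 6 libraries. With the 8 colon libraries alone the adjusted p was 0.00935 for Meg3 and 0.00342 for Rian. The 24-month levels were 1.03 and 1.05 CPM for Meg3 and 0.279 and 0.331 CPM for Rian.

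The neighbouring Mirg, a noncoding RNA, had 0.479, 1.25 and 0.820 CPM at 4 months and 0.115, 0.117 and 0.136 CPM at 12 months. Dlk1, the paternally expressed protein-coding gene of the cluster, had 2.23, 2.95 and 1.36 CPM against 0.520, 0.0584 and 0.218 CPM. Neither was called. In both the ages did not overlap, which was so for 5.01% of all tested genes in the direction of lower values. Over the imprinted gene list, 2 of 24 tested members were called lower, against 0.0172% of all tested genes, none was called higher, and the median was -0.13. The 2 members were Meg3 and Rian, which lie in the same cluster and do not count as independent genes beside this share. In the small intestine Meg3 averaged 0.51 ± 0.39 CPM in the 12-month USI and 0.41 ± 0.25 CPM in the 4-month USI.

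The fit to colon libraries alone also called Pex5l, Trim6 and Vsig2. Pex5l, which codes for a regulator of ion channel traffic, had 5.37, 5.01 and 6.25 CPM at 4 months, 1.91, 1.90 and 2.1 CPM at 12 months, and 0.112 and 0.0551 CPM at 24 months (adjusted p = 0.0204). Trim6, which codes for a ubiquitin ligase, had 7.63, 7.86 and 8.74 CPM at 4 months and 3.90, 3.94 and 3.73 CPM at 12 months (adjusted p = 0.0197), with 6.75 and 7.0 CPM at 24 months. Vsig2, an immunoglobulin family membrane protein gene, had 30.3, 22.5 and 31.1 CPM at 4 months and 71.1, 52.9 and 66.6 CPM at 12 months (adjusted p = 0.0197), with 88.6 and 84.7 CPM at 24 months. In all 3 genes the 12-month libraries lay close together and apart from the 4-month libraries. In the 24-library fit their adjusted p was 0.745, 0.745 and 1.

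**Figure D4:**
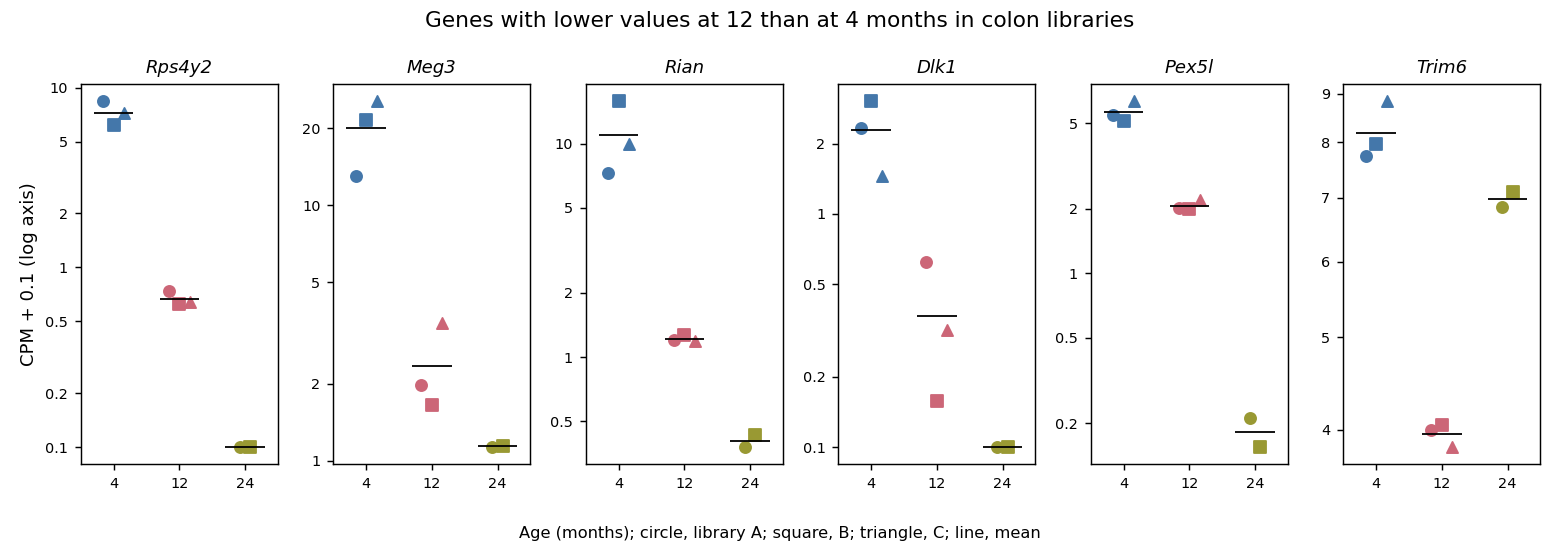
CPM plus 0.1 on a log axis for genes lower at 12 than at 4 months in the 8 colon libraries, by age in months, with circles for library A, squares for B, triangles for C and a line for the mean. In all 6 genes every 12-month point lies below every 4-month point, and Trim6 is back at 6.75 and 7.0 CPM at 24 months.

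Interferon and antigen presentation genes split the 4-month libraries, and none was called. The interferon response list had 38 tested members, all with a log2 fold change below 0 (median -0.86). Among all tested genes, 48.1% were above 0. Of the 38 members, 14 were lower at an unadjusted p under 0.05, against 1.63% of all tested genes. Iigp1, an interferon-inducible GTPase gene, had 22.8, 22.9 and 0.905 CPM at 4 months and 0.635, 1.46 and 4.25 CPM at 12 months. The 4-month A and B libraries were high and the C library lay within the 12-month range. Cd74, a gene of the MHC class II presentation list, was likewise high in the 4-month A and B libraries, with 198, 157 and 15.5 CPM. At 12 months Cd74 had 19.1, 45.7 and 97.0 CPM, so its 4-month C library lay below the 12-month range.

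Clock genes showed the same split at 4 months. Dbp, a transcription factor gene that the circadian clock drives, had 2.31, 5.32 and 54.3 CPM at 4 months and 30.5, 39.2 and 26.0 CPM at 12 months. Arntl, which codes for the clock activator BMAL1, had 75.0, 55.5 and 25.2 CPM against 27.0, 19.5 and 25.4 CPM. The 4-month C library thus lay above the 12-month range for Dbp and within it for Arntl, apart from its own age. Per3, Nr1d1 and Arntl had log2 fold changes of 0.31, 0.76 and -1.11, and none of the 24 tested clock genes was called. The sources used here do not give the time of day at collection.

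Genes encoded by the mitochondrion took 11.04% to 12.5% of counts at 4 months and 14.1% to 15.7% at 12 months, with no overlap (exact permutation p = 0.1). Of the 15 tested, none was called and 6 were higher at an unadjusted p under 0.05, against 2.46% of all tested genes, and the median was 0.39. The nuclear genes of oxidative phosphorylation had a median of 0.01 over 30 tested members, and none was called. Smooth muscle genes, which mark the tissue beneath the epithelium, had a median of -1.03 over 12 tested members, of which 6 were lower at an unadjusted p under 0.05, against 1.63% of all tested genes. The level of Actg2, a smooth muscle actin gene, was 1.76, 1.37 and 1.13 CPM at 4 months and 0.0577, 0.0876 and 0.491 CPM at 12 months. The lower values lay mostly in members of low level. The best expressed members, Mylk, Tagln and Smtn, had log2 fold changes of 0.22, -0.06 and 0.02. Summed over the list, the level was 134 CPM at 12 months and 131 CPM at 4 months (exact permutation p = 0.8).

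No stem cell or methylation gene passed the test. Lgr5, the stem cell receptor gene, had 25.7, 21.7 and 31.9 CPM at 4 months and 25.5, 23.4 and 28.8 CPM at 12 months (log2 fold change -0.03 ± 0.30). None of the 25 tested intestinal stem cell genes was called, and their median was 0.01. Olfm4, a crypt gene of the small intestine, had the smallest p of that list, with 6.94, 1.60 and 4.10 CPM against 12.6, 12.0 and 53.4 CPM (adjusted p = 0.0641). Its highest library was again the 12-month C library.

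Dnmt1, the maintenance DNA methyltransferase gene, had a log2 fold change of -0.23 ± 0.19, and its partner Uhrf1 had -0.24 ± 0.22. The de novo methyltransferase genes Dnmt3a and Dnmt3b had 0.05 ± 0.09 and -0.02 ± 0.21. The demethylation genes Tet1, Tet2 and Tet3 had 0.33 ± 0.34, -0.07 ± 0.17 and 0.00 ± 0.09. The ages overlapped for all 7 genes, and none of the 21 tested genes of the methylation machinery was called. The 31 proliferation genes had a median of -0.15 and the 17 goblet cell genes a median of 0.12, with no call in either list.

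**Figure D5:**
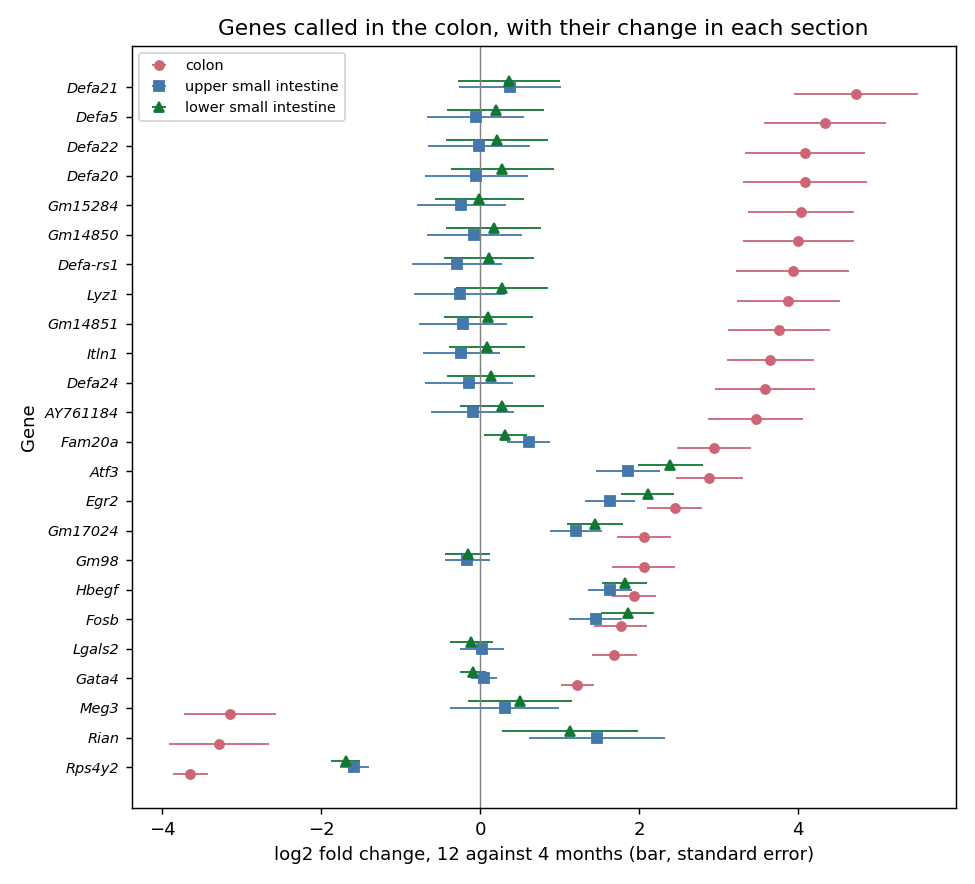
Log2 fold change between 12 and 4 months of the 24 genes called in the colon, with bars for the standard error, in the colon (circles), USI (squares) and LSI (triangles). Defensin genes, Lyz1 and Itln1 lie near 0 in both small-intestinal sections, whereas Atf3, Egr2, Hbegf and Fosb lie above 1 in all 3 sections.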

How the data were processed

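RNA from unsorted colon epithelium was sequenced by BGI. The deposited files hold raw counts per gene. Per the file headers, the authors ran featureCounts 2.0.0 with Ensembl genes of mm9 and no strand or pair options, so that each read of a pair was counted and 68.6% to 70.4% of counts from 1 to 20 were even. The paper's methods name trimmomatic, STAR and edgeR, while TopHat2, HTSeq and Cuffdiff stand in the processing notes of the submitters. Reads shared by near-identical genes are a limit of such counts.

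Counts were fitted in edgeR 4.0.16 (R 4.3.3) with the quasi-likelihood test, TMM factors and filterByExpr, with 9 groups of section and age in 24 libraries. Tests were two-sided, with Benjamini-Hochberg adjustment over all tested genes at 0.05. CPM used TMM-scaled totals. Steps were tested on simulated data. Alternatives included DESeq2 1.42.0. Named genes were all called genes (up to 20 per direction), calls of the colon fit, up to 5 members of a list by p, and a fixed set. Retnlb, Lyz2, Fos, Jun, Hoxb13, Iigp1, Epcam, Ptprc, Car1 and others outside this rule were chosen after their values were seen. Gene lists, members and comparisons were chosen with earlier results of these data known. Same-lettered libraries of both ages had correlated deviations of 0.08, 0.03 and 0.03, and were not treated as pairs. Some genes that were measured are not reported here.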

Additional observations from a re-analysis of the deposited data

Results flagged for a closer look

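The change of Rps4y2 differed between sections. Its log2 fold change between 12 and 4 months was lower in the colon than in the USI by a difference of -2.06 (adjusted p = 0.0146), and lower than in the LSI by a difference of -1.96 (adjusted p = 0.0294), by the interaction test of edgeR. With the replicate block, which pairs libraries by letter, the difference from the LSI was not called and that from the USI was. The libraries of the 2 ages did not overlap in the colon, where the level at 4 months was 7.16 ± 1.14 CPM and that at 12 months 0.569 ± 0.058 CPM (SD, n = 3). In the USI the means were 22.7 ± 1.53 CPM at 4 months and 7.55 ± 0.95 CPM at 12 months, and in the LSI 24.4 ± 1.90 and 7.56 ± 1.48 CPM.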

How the results depend on the processing

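The number of genes higher at 12 months was 21, and it was 1 with the 8 colon libraries alone, 0 with the 6 compared libraries alone (988 genes in either direction at an unadjusted p under 0.05), 68 with edgeR's likelihood ratio test, 61 with DESeq2 on 24 libraries and 94 with DESeq2 on 6. The number lower was 3, and it was 5, 4, 21, 12 and 40 in the same order, and 5 at an adjusted p under 0.1. With 1 library left out the number higher ranged from 0 to 30 and the number lower from 1 to 2, and Rps4y2 was the 1 gene called in every such fit. No gene was higher without the 4-month B library, where 615 genes had an unadjusted p under 0.05. In fits chosen after seeing the data, 0 genes were higher and 1 lower without the 6 libraries with Y-linked counts (728 at an unadjusted p under 0.05), and 1 and 1 without the 4-month A and B colon libraries. With colon libraries alone and 1 left out, the number higher ranged from 0 to 112 and the number lower from 3 to 69, both highest without the 4-month C library, and 0 higher without the 4-month A library (768 at an unadjusted p under 0.05). With the replicate block, which pairs libraries by letter, 29 genes were higher and 3 lower, and the change differed from the USI in 2 genes and from the LSI in 0 (592 at an unadjusted p under 0.05). The cause was not tested. RLE factors, other filters and halved counts gave counts within 1.5 times. No called gene changed direction. Among uncalled genes, leaving out 1 library gave both signs for Lgr5 (-0.14 to 0.13), Dnmt3b (-0.24 to 0.11), Tet1 (-0.024 to 0.63), Tet2 (-0.17 to 0.11) and Tet3 (-0.046 to 0.056). Without the Y-linked libraries the sign turned for Dnmt3b (0.076) and Tet3 (-0.042). Without 4-month A and B it turned for Dnmt1 (0.092), Dnmt3b (0.35), Uhrf1 (0.092), Tet1 (-0.13), Tet3 (-0.081), Dbp (-0.75), Per3 (-0.57) and Nr1d1 (-0.023).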
